A study of Mus musculus with 2 samples.

Results

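The 36 genes described here act in the Fanconi pathway, in homologous recombination, in the DNA damage checkpoint and in end joining, with the mismatch repair gene Msh6 added. The list is one of symbols with no threshold on a measured value, and all 36 were found among the 55421 genes of the count table. The cells were E14 mouse embryonic stem (ES) cells of 129/Ola background with an Ago1 knockout, grown on gelatin in medium with serum and leukaemia inhibitory factor (LIF). E14 is a male line, and the product of Ago1 is an Argonaute protein, a carrier of small RNAs. Polyadenylated RNA was sequenced in 2 libraries of this 1 genotype, called KO1 and KO2 here, with 57048330 and 54408708 counts. Whether clones or cultures were separate is not in the labels, and all SDs may therefore measure technical spread. Without a control library among those used here, the data give the levels of these genes in the knockout cells and the difference between the duplicates, and no effect of the knockout.

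The Fanconi pathway repairs crosslinks between the DNA strands. Its core complex, with FANCL as the ubiquitin ligase, marks the FANCD2-FANCI pair, which then calls in nucleases and recombination factors. In homologous recombination a broken end is trimmed by the MRE11-RAD50-NBN complex (MRN) with CtIP, and BRCA1-BARD1, PALB2 and BRCA2 prepare the exposed strand to copy the sister chromatid. ATM and ATR signal breaks and stalled forks to the kinases CHK2 and CHK1, while KU, DNA-PKcs and ligase IV rejoin ends without a template. ES cells spend much of their cycle in S phase, when a sister chromatid is at hand.

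Levels are given as counts per 1000000 (CPM). Ago1 itself kept reads in both libraries, with 1497 counts (26.4 CPM) in KO1 against 452 counts (8.27 CPM) in KO2, and counts per gene do not show which exons they came from. The 5 ES cell markers were all abundant, from 309 ± 16.9 CPM (SD, n = 2) for Sox2 to 976 ± 275 CPM for Pou5f1. Of 6 fibroblast genes, 1 was detected, Thy1, while Postn and Lum had 0 counts. The 7 skeletal muscle markers summed to 11.2 CPM in KO1 and 1.70 CPM in KO2 and none reached 1 CPM in both. All 7 were higher in KO1 by the rule for a difference beyond 2-fold given below. Their part in the levels below was not tested.

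All 36 genes were detected in both libraries. Each reached at least 1 CPM in both libraries, as 55.3% of 21976 protein-coding genes did, and 32 reached at least 10 CPM in both, or 88.9% against 38.0% of protein-coding genes. These shares describe a list of known repair genes and carry no test. Member counts in a library ran from 185 to 59279. In a bulk sample, fewer cells expressing a gene and less RNA per cell cannot be told apart.

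Levels were compared between genes after division by the length of their annotated exons, as CPM per kb. The median of the 36 genes was 7.78 CPM per kb, beside 5.85 CPM per kb for the 12148 detected protein-coding genes. Above that background median lay 21 of the 36 genes, 7 were in its upper quartile and 2 in its lower quartile. The members spanned 192-fold per kb of exon, from Msh6 to Fancc, and 113-fold per kb of longest transcript, from Msh6 to Fancf. In their order, 27 of 35 neighbouring pairs had overlapping ranges over the 2 libraries, so most adjacent positions were not separated. The 8 steps without overlap included those below Msh6, Xrcc5 and Xrcc6 at the top and the one above Fancc at the bottom.

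**Figure D1:**
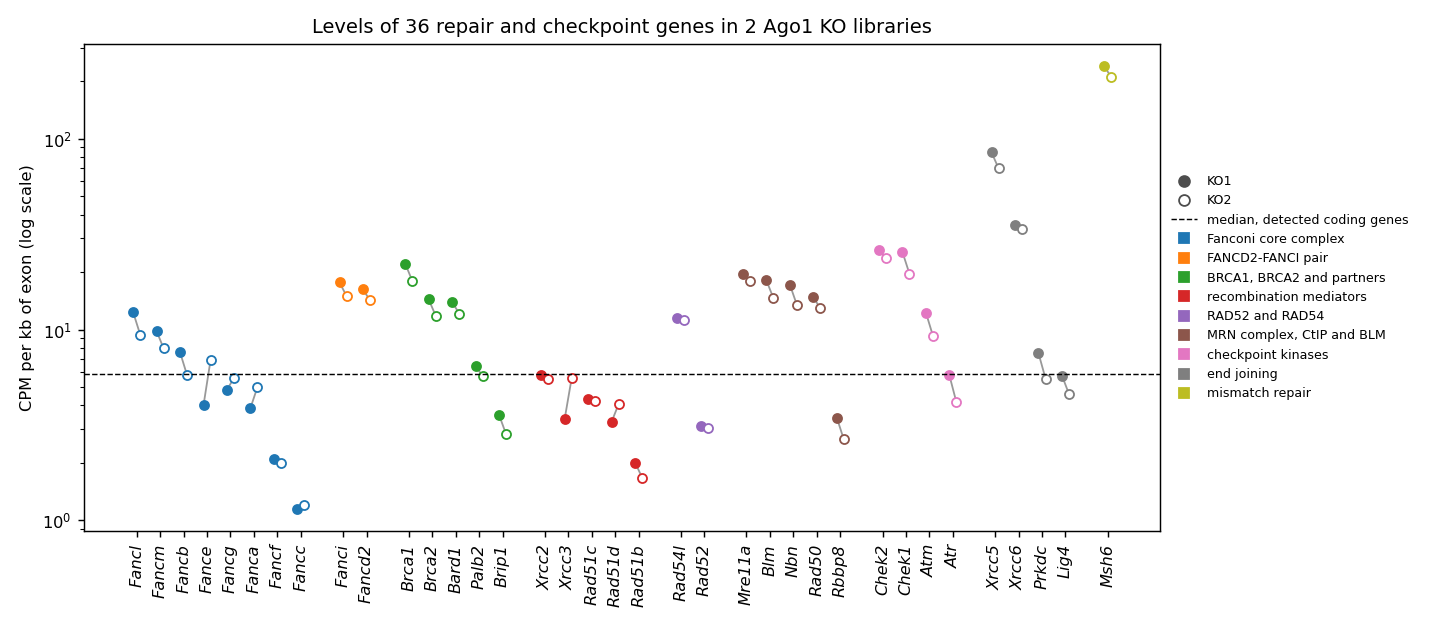
Level of each of the 36 genes in CPM per kb of exon on a log axis, grouped by role, with KO1 as filled and KO2 as open circles. Msh6 stands highest, at 240.1 in KO1 and 211 in KO2, and Fancc lowest by this length, at 1.14 and 1.20; the dashed line is the median of detected protein-coding genes, 5.85.

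Msh6, whose product recognises base mismatches, was by far the most abundant gene of the list. It had 1043 CPM in KO1 and 915 CPM in KO2, or 225 ± 20.9 CPM per kb (SD, n = 2), and stood above 98.8% of detected protein-coding genes. The neighbour Fbxo11 overlaps 0.782% of its exons on the opposite strand. The gene (ENSMUSG00000005370) lies on chromosome 17 from 87975062 to 87990892, plus strand, in GRCm38. Its promoter window from RefSeq (GRCm38.p6), 250 bases before to 50 bases after the start, is printed because it belongs to the highest gene; capitals mark a CCAAT box on the reverse strand and the word TTTCCCGC, a form of the binding site of E2F factors, which drive genes of S phase.
Msh6 promoter window (chr17:87974800-87975099, plus strand): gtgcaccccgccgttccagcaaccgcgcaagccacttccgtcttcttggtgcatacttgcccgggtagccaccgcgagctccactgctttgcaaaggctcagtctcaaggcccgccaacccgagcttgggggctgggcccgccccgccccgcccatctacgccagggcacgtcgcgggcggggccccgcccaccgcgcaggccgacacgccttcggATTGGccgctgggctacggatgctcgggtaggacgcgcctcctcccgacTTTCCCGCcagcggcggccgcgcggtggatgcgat

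The end-joining genes came next. The KU subunit genes Xrcc5 and Xrcc6, whose products clasp broken ends together, had 84.8 and 35.1 CPM per kb in KO1 and 69.8 and 33.5 CPM per kb in KO2. Xrcc5 was thus 2.25 ± 0.232 times as high as Xrcc6 (SD, n = 2), and 1.66 times by longest transcript. The ranges of both genes lay above all members other than Msh6. Prkdc, encoding the kinase DNA-PKcs that KU recruits, was much lower, at 7.51 CPM per kb in KO1 and 5.54 in KO2. Lig4, the ligase that seals the ends, was at 5.74 and 4.59 CPM per kb. Prkdc and Lig4 overlapped in range, and both lay near the background median of 5.85 CPM per kb.

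The checkpoint kinase genes divided into higher effector and lower upstream kinases. Chek2 and Chek1, encoding CHK2 and CHK1, were at 24.9 ± 1.66 and 22.5 ± 4.14 CPM per kb (SD, n = 2). Their ranges overlapped, with Chek2 at 26.0 in KO1 and 23.7 in KO2 and Chek1 at 25.4 and 19.6. Atm was at 12.3 CPM per kb in KO1 and 9.27 in KO2, and Atr at 5.76 and 4.16. The order of Atm and Atr depends on the length used, since the annotated exons of Atr add up to 23629 bases and its longest transcript to 8102. Per kb of exon, Atr was at 0.459 ± 0.0154 times Atm, and per kb of longest transcript at 1.28 times. Unscaled, they had 117 ± 26.8 CPM for Atr and 111 ± 21.8 CPM for Atm.

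Genes of end resection and of the BRCA proteins lay mostly above the background median. Mre11a, Nbn and Rad50, which form MRN, were close to each other at 18.8 ± 1.18, 15.3 ± 2.64 and 13.8 ± 1.29 CPM per kb (SD, n = 2). Rad50 was at 0.753 times Mre11a in KO1 and 0.721 times in KO2. Blm, a helicase that resolves recombination intermediates, was at 18.1 CPM per kb in KO1 and 14.6 in KO2. Rbbp8, encoding CtIP, was much lower at 3.45 and 2.65 CPM per kb, outside the range of MRN. Its exons add up to 12521 bases against 5471 in its longest transcript, and by that length it stood above 46.8% of detected protein-coding genes in place of 34.3%.

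Brca1, Brca2 and Bard1 formed the upper part of the BRCA group. Brca1, a ubiquitin ligase with BARD1, was at 22.1 CPM per kb in KO1 and 18.0 in KO2. It was at 1.59 times its partner Bard1 in KO1 and 1.48 times in KO2, and at 2.00 times by longest transcript. Brca2, which acts at the strand exchange step, was at 13.1 ± 1.83 CPM per kb, and Bard1 at 13.0 ± 1.28. Palb2, the bridge between BRCA1 and BRCA2, had 6.07 ± 0.531 CPM per kb, and Brip1, a helicase bound by BRCA1, 3.20 ± 0.526. Brca2 was 2.23 times Palb2 in KO1 and 2.07 times in KO2, and 1.40 times by longest transcript.

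The recombination mediator genes Xrcc2, Xrcc3, Rad51b, Rad51c and Rad51d were low as a group. Xrcc2 had 5.79 CPM per kb in KO1 and 5.49 in KO2, Xrcc3 had 3.41 and 5.60, and Rad51c had 4.32 and 4.22. Rad51d followed with 3.28 and 4.07 CPM per kb, and Rad51b with 2.01 and 1.68. All 5 means lay below the background median of 5.85 CPM per kb, though Xrcc2, with the highest mean, was above it by longest transcript. The products of these genes form small complexes that assist strand exchange. Rad54l, a motor protein acting on DNA during strand exchange, was higher at 11.3 ± 0.199 CPM per kb (SD, n = 2), and Rad52, an annealing factor with a small part in mammalian cells, was at 3.08 ± 0.0317.

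In the Fanconi pathway, the FANCD2-FANCI pair stood above its core complex. Fanci was at 16.3 ± 1.92 and Fancd2 at 15.2 ± 1.42 CPM per kb (SD, n = 2), with overlapping ranges and a Fancd2 to Fanci ratio of 0.918 in KO1 and 0.951 in KO2. By longest transcript that ratio was 1.08, so neither gene can be called the higher. The 8 core genes ran from 1.17 to 10.9 CPM per kb with a median of 5.33. Fancl, the ligase, led at 12.3 CPM per kb in KO1 and 9.41 in KO2, and Fancm, the translocase that brings the complex to DNA, followed at 9.81 and 7.96. The range of Fancm lay below the means of Fanci and Fancd2.

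The other core genes were lower. The X-linked Fancb was at 7.59 CPM per kb in KO1 and 5.76 in KO2, Fance at 4.01 and 6.90, Fancg at 4.84 and 5.58 and Fanca at 3.88 and 4.99. Each of these ranges overlapped that of the next lower member in the order. By longest transcript the order changed, with means of 8.66 CPM per kb for Fanca, 7.95 for Fance, 6.68 for Fancb and 6.65 for Fancg. Fancf and Fancc were the 2 lowest of the complex. Fancf, a gene of 1691 exonic bases on chromosome 7 (ENSMUSG00000092118, 51860577 to 51862267, minus strand), had 201 counts in KO1 and 185 in KO2, or 2.05 ± 0.0635 CPM per kb. Fancc had 543 and 550 counts, or 1.17 ± 0.0431 CPM per kb. Its exons add up to 8359 bases against 3165 in its longest transcript, by which its level was 3.10 CPM per kb and Fancf, at 2.05, was the lowest member. Of the exons of Fancc, 18.6% lie under genes of the opposite strand. Such overlap was 16.0% for Fanci with Polg, 15.4% for Rad54l with Lrrc41, 15.0% for Fancf with Gas2, 13.7% for Fancl with Vrk2 and 10.5% for Fanca with Zfp276, and reads of partners cannot be told apart where strands were not kept apart in counting.

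Promoter sequences were available in RefSeq for 29 of the 36 genes, in 33 windows of 300 bases. Both strands were searched for the E2F-type words TTTGGCGC, TTTGCCGC, TTTCGCGC and TTTCCCGC. They occurred in 24.2% of member windows, against 4.04% of 12323 windows of detected protein-coding genes and 2.26% of all 32851 windows. The 8 words belonged to 7 genes, Bard1, Brca2, Chek2, Fancg, Msh6, Rad51c and Xrcc6. They are shown with 10 bases on each side because 7 of the 8 are the same word, TTTCCCGC or its reverse complement, and the other is TTTCGCGC in Rad51c; capitals mark the word, and each line runs 5′ to 3′ on the strand of the gene.
Bard1 (chr1:71103164-71103191, minus strand): cgccgctcagTTTCCCGCtcaggaagtt
Brca2 (chr5:150522443-150522470, plus strand): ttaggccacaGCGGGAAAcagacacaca
Chek2 (chr5:110839821-110839848, plus strand): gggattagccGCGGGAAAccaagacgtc
Fancg (chr4:43010336-43010363, minus strand): ttcttttcagTTTCCCGCggaaccgtct
Msh6 (chr17:87975055-87975082, plus strand): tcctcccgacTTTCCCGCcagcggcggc
Rad51c (chr11:87404478-87404505, minus strand): tttccagcgcTTTCGCGCctcttgctct
Rad51c (chr11:87404942-87404969, minus strand): ccccgcgaggGCGGGAAAagcaaggggt
Xrcc6 (chr15:82016313-82016340, plus strand): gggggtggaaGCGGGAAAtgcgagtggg

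Per kb of exon, the median level was 13.1 CPM for the 7 genes with such a word and 6.37 CPM for the 22 with a window and none. The size of this gap depends on the length used. By longest transcript, Brca2 was the middle gene of the 7 at 16.7 CPM per kb. Atm and Fancm stood in the middle of the 22 at 11.3 and 11.9. The groups overlapped, from 4.27 CPM per kb for Rad51c with a word to 77.3 for Xrcc5 without one. A word match is a description of these letters and not a bound site. CCAAT boxes (CCAAT, both strands) occurred in 63.6% of member windows, against 38.0% of windows of detected protein-coding genes. Words of the NRF1 type (GCGCA and GCGC with 1 base between them) occurred in 12.1% of member windows and 10.1% of the same background, and GC boxes (GGGCGG) in 66.7% and 63.7%. The word TTTGAA, a cell cycle homology region, occurred in 6.06% and 11.9%, and TATAAA in 6.06% and 6.69%. Member windows held a median of 23 CpG sites, beside 21 in the same background.

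The promoter window of Xrcc3 held 6 CCAAT boxes, and is printed for that reason, chosen after the words were counted, with the boxes in capitals, on either strand. As many or more were found in 0.146% of windows of detected protein-coding genes. One pair of boxes in it, in opposite orientation, is directly joined as ATTGGCCAAT.
Xrcc3 promoter window (chr12:111813830-111814129, minus strand): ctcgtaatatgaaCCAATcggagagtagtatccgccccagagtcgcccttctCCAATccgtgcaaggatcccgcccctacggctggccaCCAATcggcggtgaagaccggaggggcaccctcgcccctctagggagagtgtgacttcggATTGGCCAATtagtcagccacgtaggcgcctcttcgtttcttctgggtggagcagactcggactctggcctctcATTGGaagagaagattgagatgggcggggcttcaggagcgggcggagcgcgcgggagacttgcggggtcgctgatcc

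A number of members lie head to head with a neighbouring gene. Of the 36 genes, 14 had the start of a protein-coding gene on the opposite strand, in divergent orientation, within 1000 bases of their own, or 38.9% against 16.1% of 12144 detected protein-coding genes. Starts here are the outer 5′ ends of the annotated genes, which for some members lie far from the promoter windows. Xrcc6, for example, starts at 81987835 on chromosome 15, whereas its window runs from 82016119 to 82016418. All 14 neighbours were detected in both libraries. The distance between the starts ran from 21 bases for Lig4 and Abhd13 to 978 bases for Rad51b and Zfyve26, with a median of 202. In 2 pairs, Fancf with Gas2 and Mre11a with Ankrd49, the genes overlapped at their 5′ ends.

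The RNA levels of such neighbours were close in some pairs and far apart in others. Per kb of exon, the only length used for these pairs, 6 of the 14 lay within 2-fold. The repair gene was the higher of the pair in 6 cases and the lower in 8. Brca1 and Nbr1, an autophagy receptor gene, were at 20.1 ± 2.91 and 25.8 ± 2.06 CPM per kb (SD, n = 2), with 194 bases between their starts. Atm and Npat, a coactivator of histone genes, were at 10.8 ± 2.11 and 15.7 ± 2.85 CPM per kb, with 307 bases between them. Both of these neighbouring pairs were close in level.

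The widest gap was between Prkdc and Mcm4, a subunit of the replicative helicase. Prkdc was at 6.53 ± 1.40 CPM per kb and Mcm4 at 132 ± 8.03, a 20.2-fold difference across 466 bases. Palb2 was lower than Dctn5, a dynactin subunit gene, at 6.07 against 20.9 CPM per kb. Rad51c was lower than Tex14, a gene of germ cell bridges, at 4.27 against 10.1 CPM per kb, and Xrcc3 lower than Zfyve21 at 4.50 against 10.6. In the other direction, Chek2 was 2.46 times as high as Hscb, Rad54l 2.46 times as high as Pomgnt1, Mre11a 2.36 times as high as Ankrd49 and Fancb 2.30 times as high as Mospd2. Unscaled to length, Fancb had 19.9 CPM and Mospd2 23.0 CPM, the reverse order. Fancd2 and Emc3, with 30 bases between their starts, were at 15.2 and 10.5 CPM per kb.

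**Figure D2:**
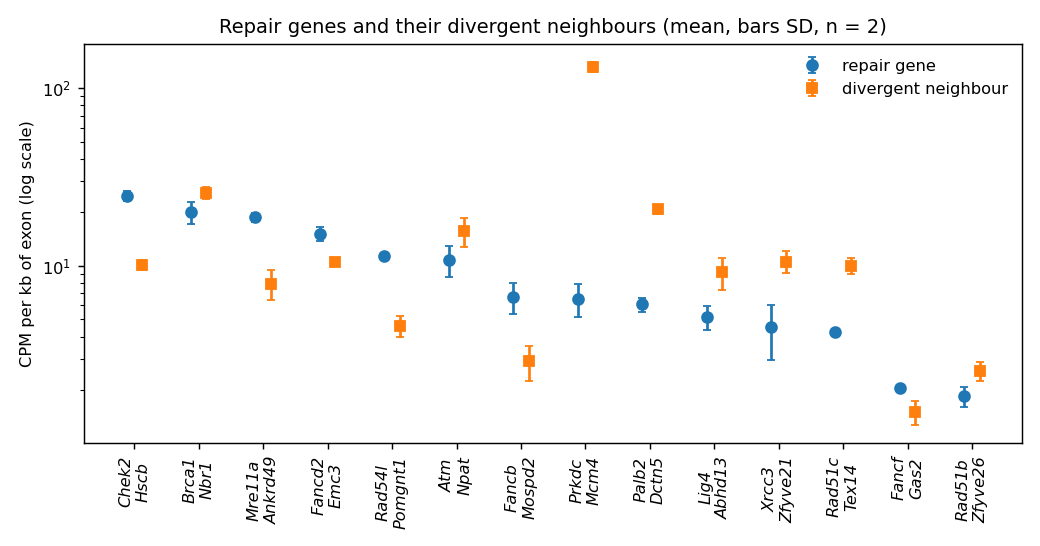
Mean level in CPM per kb of exon on a log axis for 14 repair genes (circles) and the divergent protein-coding gene within 1000 bases of each (squares), with bars for the SD over 2 libraries. Brca1 and Nbr1 lie close together, whereas Mcm4 stands 20.2-fold above Prkdc.

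The window of Atm reaches into that of Npat by 125 bases and is printed as an example of overlapping windows. Capitals mark a CCAAT box on the reverse strand and 2 words of the NRF1 type; no E2F-type word was found in this window.
Atm promoter window (chr9:53536622-53536921, minus strand): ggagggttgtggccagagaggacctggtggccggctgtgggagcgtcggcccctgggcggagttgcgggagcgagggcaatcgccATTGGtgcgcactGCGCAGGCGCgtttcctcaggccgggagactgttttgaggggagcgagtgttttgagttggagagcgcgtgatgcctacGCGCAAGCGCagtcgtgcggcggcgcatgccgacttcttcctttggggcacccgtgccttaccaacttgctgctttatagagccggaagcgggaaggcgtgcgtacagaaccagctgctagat

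Of the other repair genes, 105 of 106 outside meiosis were detected, with a median of 8.19 CPM per kb, close to the 7.78 of the members. For the Fanconi pathway, 17 of 17 further genes were detected at a median of 8.53 CPM per kb. Usp1, the protease that removes ubiquitin from FANCD2, led them by CPM at 295 ± 61.7 CPM (SD, n = 2), followed by the polymerase gene Rev3l, and the nuclease genes Fan1 and Mus81 were lowest at 10.1 ± 1.00 and 9.56 ± 3.66 CPM. For homologous recombination, 21 of 21 were detected at a median of 7.35 CPM per kb, from Rpa1, a subunit of the single-strand binding protein, at 488 ± 12.9 CPM and Sfr1 at 198 ± 11.3 CPM down to Swsap1 and Rmi2 at 11.4 ± 0.530 and 10.4 ± 0.262 CPM.

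The further checkpoint and break signalling genes had the highest median of the comparison lists, 16.9 CPM per kb, with 21 of 21 detected. Rif1, which shields ends from resection, was at 903 ± 223 CPM (SD, n = 2) and Topbp1, an activator of ATR, at 332 CPM in KO1 and 289 CPM in KO2. At the low end were Atrip, the partner of ATR, at 23.1 ± 2.77 CPM and the ubiquitin ligase gene Rnf8 at 6.22 ± 0.425 CPM. On the same strand, Trex1 overlaps 16.0% of the exons of Atrip, and Gm28043 overlaps 13.2% of those of Rnf8. Without the 4 members, whose median was 20.4 CPM per kb, the end joining list had the lowest somatic median, 3.06 CPM per kb, with 12 of 13 detected. Parp1 reached 741 ± 115 CPM there and Lig3 118 ± 6.53 CPM, whereas Paxx was at 1.15 ± 0.184 CPM and Dntt, the polymerase of lymphoid cells, had 0 counts, which allows up to 0.0528 CPM in KO1 and 0.0549 CPM in KO2. Xrcc4, which binds ligase IV, was at 1.88 ± 0.539 CPM per kb. Lig4 was 2.55 times as high in KO1 and 3.07 times in KO2, and 2.32 times by longest transcript.

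Excision repair and further mismatch repair genes were detected throughout. The 6 other mismatch repair genes had a median of 7.43 CPM per kb, among them Mlh3 at 72.0 ± 12.7 CPM, with Pms1 and Pms2 lowest at 40.2 ± 10.2 and 28.2 ± 2.18 CPM (SD, n = 2). Nucleotide excision repair had 12 of 12 detected at a median of 6.75 CPM per kb, from Ddb1 at 1183 ± 41.9 CPM and Rad23b at 569 ± 53.4 CPM to Ddb2 and Xpa at 13.6 ± 0.589 and 4.96 ± 0.460 CPM. Base excision repair had 16 of 16 at a median of 6.35 CPM per kb, from Lig1 at 374 ± 36.5 CPM and Apex1 at 239 ± 4.15 CPM to the glycosylase genes Neil1 at 6.29 ± 1.82 CPM and Neil3 at 6.78 CPM in KO1 and 4.65 CPM in KO2. Per kb of exon Msh6, at 225 CPM per kb, stood above every gene of these comparison lists, but per kb of longest transcript it was at 230.3, below Ddb1 at 265. Of the exons of Apex1, 61.7% lie under Pip4p1 on the opposite strand.

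**Figure D3:**
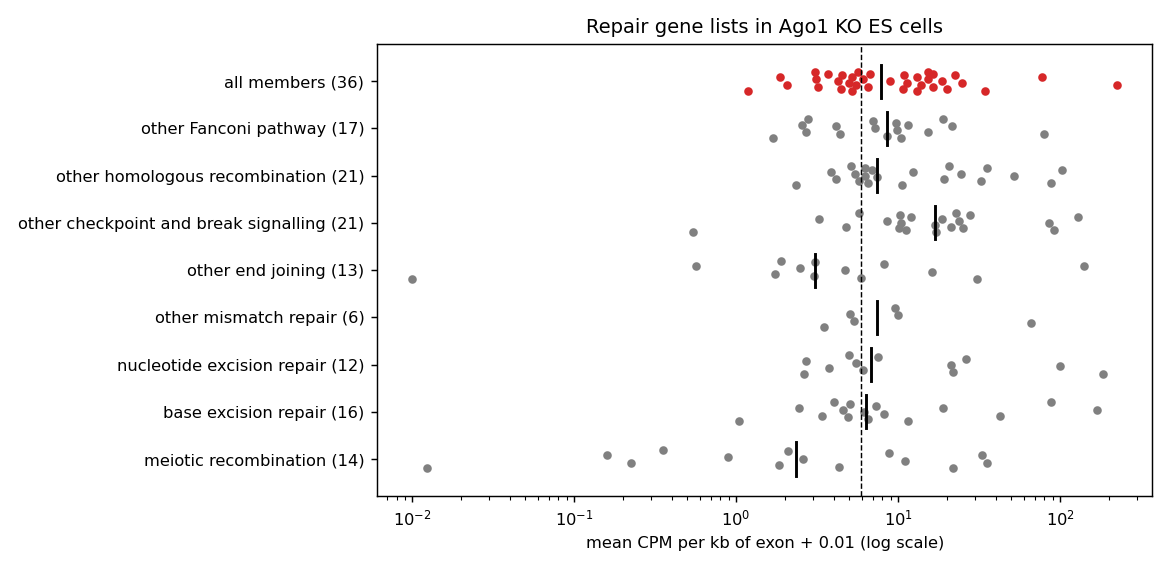
Mean level of each gene in CPM per kb of exon, plus 0.01 for the log axis, for the 36 members (red) and 8 comparison lists (grey), with the number of genes in brackets, black bars at list medians and a dashed line at the median of detected protein-coding genes. The checkpoint list has the highest median, 16.9, and the meiotic list the lowest, 2.34.

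The duplicates were then compared gene by gene, as the TMM-scaled count ratio of KO1 over KO2 with an exact 95% interval that covers counting error only. None of the 36 genes had its whole interval beyond 2-fold, whereas this held for 1.06% of the 15619 genes that had 50 or more counts over both libraries, 0.0768% with KO1 and 0.98% with KO2 the higher. A count of 0 among 36 is near that background. The 12 genes with KO1 the higher included Ago1, at 3.18-fold (95% interval 2.87 to 3.55), and all 7 skeletal muscle markers. Ago1 and these markers also passed after the GC correction described below. At 1.5-fold 1 member, Fance, passed, higher in KO2, against 6.4% of the 15619 genes in that direction and 6.6% in either. Fance had 12.8 CPM in KO1 and 22.0 CPM in KO2, a log2 ratio of -0.78 (95% interval -0.92 to -0.65). Xrcc3 was next, with 9.38 and 15.4 CPM and a log2 ratio of -0.71 (-0.87 to -0.56).

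Most members were slightly higher in KO1. The median log2 ratio was 0.20 over the 36 genes and -0.01 over all annotated genes with the same minimum. Above 0 were 30 of the 36 members, and 7647 of the 15608 annotated genes with that minimum. The interval lay above equality for 25 members, or 69.4% against 31.2% of genes, and below it for 5, or 13.9% against 34.3%. In either direction 65.5% of genes had an interval clear of equality. The largest ratios above 0 were those of Atr at 0.47 (0.42 to 0.52) and Prkdc at 0.44 (0.38 to 0.50). Members had a median summed count of 6604.5, beside 1765 for all genes with 50 or more counts, so their intervals were narrower.

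The direction followed the GC content of the transcript. Over the 36 genes the ratio had a Spearman correlation of -0.87 with GC content, and over 15603 genes one of -0.81; genes share the libraries and are not replicates. All 18 members of lower GC content, from 40.8% to 45.8%, were higher in KO1, with a median log2 ratio of 0.33. Of the 18 with 45.9% to 61.4%, 12 were higher in KO1 and 6 in KO2, with a median of 0.07. Fance, at 61.4%, had the highest GC content and the lowest ratio. The median GC content was 45.9% for members and 49.8% for detected protein-coding genes.

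After a loess correction for GC content, the median log2 ratio of the members was 0.049 and that of all annotated genes 0.00. The interval then lay above equality for 12 members and below it for 5, that is 33.3% and 13.9% against 19.9% and 20.3% of genes (40.1% in either direction), and none passed 2-fold, which 0.269% of genes did. Fance moved to 0.09 (-0.05 to 0.22) and Atr to 0.13 (0.08 to 0.18). The mediator genes Rad51c, Rad51d and Xrcc3 were lower in KO1 at -0.19 (-0.32 to -0.07), -0.27 (-0.41 to -0.12) and -0.19 (-0.35 to -0.03). Rad52 at -0.15 (-0.28 to -0.02) and Rad54l at -0.09 (-0.15 to -0.03) were the remaining members below. Other recombination members were higher in KO1 after the same correction, such as Brca1 at 0.13 (0.09 to 0.18), Nbn at 0.12 (0.03 to 0.21) and Blm at 0.08 (0.03 to 0.12).

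At the other end, Fancf had the largest corrected ratio, 0.60 (0.30 to 0.89), while its uncorrected ratio was 0.06 (-0.23 to 0.36). A corrected ratio as far from 0 was found in 4.04% of genes with 50 or more counts and in 3.74% of 963 genes with 300 to 500 summed counts, the depth of Fancf. Xrcc6 followed at 0.30 (0.26 to 0.34) and Prkdc at 0.17 (0.11 to 0.23). Msh6 had a corrected ratio of 0.15 (0.13 to 0.16). All of these are differences of less than 2-fold between 2 libraries of 1 genotype.

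**Figure D4:**
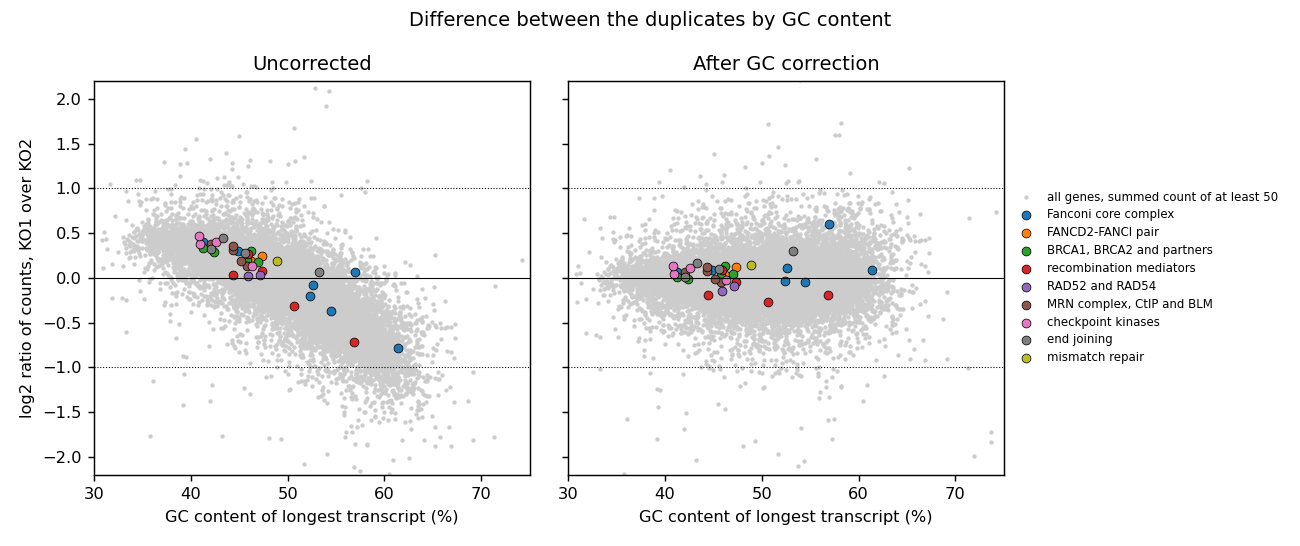
The log2 ratio of counts, KO1 over KO2, against the GC content of the longest transcript for all genes with 50 or more counts in sum (grey) and the members (coloured by role), before and after the GC correction, with dotted lines at 2-fold; a few genes beyond the axis limits are not drawn. Members follow the downward trend before correction, with Fance lowest at -0.78, and scatter around 0 after it, with Fancf highest at 0.60.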

How the data were processed

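The deposited data are raw, whole-number counts of reads for each Ensembl gene in 2 libraries of polyadenylated RNA. Libraries came from a TruSeq RNA kit, stated to be reverse-stranded, on Trizol-extracted RNA, per the labels' protocols. Per the submitters' processing notes, reads were placed on GRCm38. Aligner, counter and its strand setting are not given in the sources used, nor is the treatment of reads shared by near-identical copies, and 10 members have over 5% of their exons under a gene of the opposite strand. Of 55421 identifiers, 55240 matched GENCODE M21, which gave symbols, exon lengths and GC content.

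Counts were scaled to CPM with TMM factors of edgeR 4.0.16 (0.996 for KO1, 1.00 for KO2) in R 4.3.3; 3 counts, taken as the limit that a count of 0 allows, equal 0.0528 CPM in KO1 and 0.0549 in KO2. With 1 group no quasi-likelihood test was possible and no p-value is given. Ratios carry exact conditional binomial 95% intervals and log2 values add 0.5 counts, and the GC correction is a loess of span 0.3 (R). Intervals cover counting error only and hold no term for spread between libraries. They also treat reads as independent, although PCR reads are not independent molecules. The edgeR common biological coefficient of variation was 0.198, and the chi-square of the counts per degree of freedom was 76.4, so the libraries are not copies. Both ratio steps were tried only on counts simulated with counting noise, without and with a straight-line GC trend. That setting lacks the further spread between these libraries. Other steps ran in python 3.11.15 with pandas 2.3.3, scipy 1.17.1, numpy 2.4.6 and matplotlib 3.10.9, and DESeq2 1.42.0 gave alternative size factors. All members were named; of the other lists, the 2 highest and 2 lowest genes by mean CPM, partners of members and genes differing beyond 2-fold were named, and the others were named after their values were seen. Some items of these lists are not reported here. Membership used no threshold on these data, but members and lists were chosen with earlier results of these data known.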

Additional observations from a re-analysis of the deposited data

How the results depend on the processing

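No paired analysis was possible because KO1 and KO2 form a single group. All 36 genes stayed detected with total counts, DESeq2 size factors (both 1), mitochondrial genes left out, no filter or either library alone, and 35 were at 5 CPM or more in both. The median log2(CPM per kb + 1) of 3.12 was 3.07 to 3.27 with either library left out, 3.69 by longest transcript and 5.87 unscaled to length, which is another quantity. The count of 0 members beyond 2-fold was 1 at 1.5-fold and 0 under all other settings tried. The median log2 ratio of 0.20 was 0.049 with the GC correction, and it ran from 0.18 to 0.25 under other scalings. For single members, the correction left 17 intervals no longer clear of equality and brought 4 clear of it. It changed the sign of 10, and none of the 36 ratios reversed with both intervals clear. The count of 14 divergent pairs was 13 within 500 bases, 16 within 2000 bases and 18 with neighbours of any type. Of detected protein-coding genes, 16.1% had such a neighbour in the main setting, and 13.6%, 17.7% and 26.3% in these other settings. The rise to 18 thus came with a rise in the background. Depth limits Fancf most, with 386 counts in all.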

Other observations

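Genes of meiotic recombination, the germ cell counterpart of the repair described above, were transcribed in part. Of 14 listed genes, 12 were detected, with a median of 2.34 CPM per kb. Sycp3, a part of the synaptonemal complex, was the highest by CPM at 52.9 in KO1 and 36.3 in KO2, with 52.2% of its exons under Chpt1 on the opposite strand. Hormad1, which lines meiotic chromosome axes, followed at 43.3 and 31.6 CPM. Dmc1, a strand exchange gene of meiosis, was at 23.9 CPM in KO1 and 18.8 in KO2, or 8.76 ± 1.47 CPM per kb (SD, n = 2), which lay above Xrcc2, Xrcc3, Rad51b, Rad51c and Rad51d per kb of exon. Spo11, which cuts DNA to start meiotic recombination, was listed with 0 counts (KO1) and 1 count (KO2), and Mei1 was at 0.704 and 0.714 CPM. Among the other repair genes, 1 of the 105 with a ratio differed beyond 2-fold between the libraries, near the 1.06% of all genes with 50 or more counts. This was Faap100 of the Fanconi core complex, at 8.08 (KO1) and 18.3 (KO2) CPM, a log2 ratio of -1.18 (95% interval -1.35 to -1.02) and of -0.34 (-0.50 to -0.18) after the GC correction.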
